A study of Mus musculus with 12 samples.

Results

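The genes described here are 9 members of receptor tyrosine kinase and Ras signalling whose transcripts were searched for contacts with ESRP1, an epithelial regulator of alternative splicing. They are the receptor genes Egfr, Erbb2, Erbb3, Met, Igf1r and Insr, the adaptor gene Grb2, the exchange factor gene Sos1 and the kinase gene Braf. A site was counted when it lay inside the GRCm38 span of the gene on the gene's own strand, and sites at most 10 nt apart were joined into a region. This gave 71 regions in the union of the data for these 9 of 21887 protein-coding genes, with no region in Met. The whole series held 45738 regions, inside and outside genes. All libraries came from epidermis of back skin of mouse pups on postnatal day 1 that were Esrp1FLAG/FLAG, with the tag at both copies of the endogenous gene. The labels list 6 libraries of RNA pulled down with a FLAG antibody and 6 input libraries made with no antibody, as biological replicates 1 to 6, and they name no untagged or mutant animals. The assay was eCLIP, in which ultraviolet irradiation crosslinks a protein to bound RNA and cDNA synthesis often ends where the crosslink sits. The values are 3 lists of single-nucleotide sites that the authors called with input, list 1 on replicates 1 and 2, list 2 on replicates 3 and 4 and list 3 on replicates 5 and 6.

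Receptor tyrosine kinases are membrane proteins, most of which dimerise when a growth factor binds outside the cell and then phosphorylate each other inside it. GRB2 docks on the phosphorylated tails and brings SOS, which loads Ras with GTP, and GTP-bound Ras switches on the Raf kinases and through them MEK and ERK. In epidermis the EGF receptor family is known for driving keratinocyte growth and restraining differentiation, MET responds to hepatocyte growth factor released by stromal cells, and the insulin and IGF1 receptors pass on signals for growth and metabolism. ESRP1 is known for controlling exon choice in epithelial cells, with the exons of the fibroblast growth factor receptor gene Fgfr2 as the best known case.

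Lists 1, 2 and 3 held 73602, 40014 and 53864 sites, and sequencing depth is unknown because no read counts come with them. Each site has a deposited score of unstated scale, given here also as its percentile within its list, where a high percentile is a high score. The tissue label was compared with markers: 8 of 15 keratinocyte marker genes had a region found in all 3 lists, against 0 of 21 markers of melanocytes, fibroblasts, immune cells and endothelium, 4 of which had a site. Krt14, Krt1, Lor and Flg had no site although they define keratinocytes. Expression was not measured, so the absence of a site does not separate an unbound transcript from a scarce one or from one lost in calling against input.

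Recurrent ESRP1 regions were present in Erbb2, Erbb3, Grb2 and Braf, and in none of the other 5 genes. A region was called recurrent when sites of all 3 lists fell within it. The share of 4 in 9 genes (44.4%) was read against 17.0% of all protein-coding genes and 25.3% of those with a span at least as long as the shortest member (22113 nt). Having a site was itself common here, in 8 of the 9 genes, against 34.8% of protein-coding genes. Counted over genes with a site, the share was 4 of 8 genes, against 48.8% of protein-coding genes with a site, so it lay near the background there, and the number of genes is small. In all, 10 of the 71 regions were found in all 3 lists (14.1%, exact 95% binomial interval 6.97 to 24.4), 12 in 2 lists and 49 in 1. Over the whole series, inside and outside genes, the share in all 3 lists was 21.1% (20.7 to 21.5), which lies inside the interval of the 9 genes. In protein-coding genes with spans of at least 22113 nt, 4189 of 23339 regions were found in all 3 lists. The intervals treat regions as independent, though regions of the same gene may not be. When only sites above the median score of their list were used, 5 recurrent regions were left, in 3 genes, and those of Grb2 were lost.

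**Figure D1:**
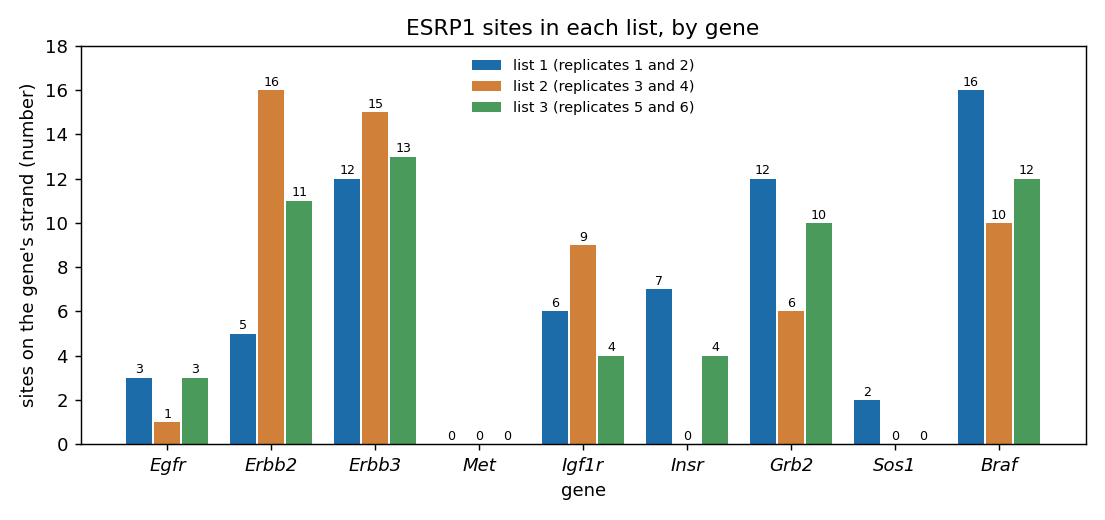
Bars give the number of single-nucleotide sites on the gene's own strand in each list, with the number above each bar. Egfr, Erbb2, Erbb3, Igf1r, Grb2 and Braf have sites in every list, Insr has none in list 2, Sos1 has none in lists 2 and 3, and Met has none in any.

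The number of sites per gene did not follow the size of the lists in the same way for all genes. Erbb2 held 5, 16 and 11 sites in lists 1, 2 and 3, which is 0.679, 4.00 and 2.04 for every 10000 sites of each list. Its highest count was thus in the smallest list. Erbb3 held 12, 15 and 13 sites, or 1.63, 3.75 and 2.41 for every 10000. Braf, at 16, 10 and 12 sites, was even for list size, with 2.17, 2.50 and 2.23 for every 10000. Grb2 was also nearly even, with 12, 6 and 10 sites, or 1.63, 1.5 and 1.86 for every 10000. No error between libraries can be given for these counts, since each list pools 2 replicates.

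Erbb2 encodes the ErbB receptor that binds no ligand of its own and works as a partner of the others. Its span runs over chromosome 11 from 98412484 to 98437716 on the plus strand (GRCm38), and 18 regions lay in it. Both recurrent regions of Erbb2 sat near the middle of the span. The first was the single nucleotide 98424339, which was present in every list with scores of 34.9, 48.6 and 29.8 in lists 1, 2 and 3. These scores stood at percentiles 78.7, 88.3 and 67.0 of their lists. The second covered 98425247 to 98425249, with highest scores of 30.9, 33.5 and 44.8, and in each list the highest score was on the same nucleotide. Both were thus above the median score of every list. A further 3 regions were found in 2 lists each, at 98422611 and at 98424413 to 98424423 in lists 1 and 3 and at 98433217 to 98433223 in lists 2 and 3. Without list 2 Erbb2 had 4 shared regions. The remaining 13 regions came from 1 list, and 11 of these from list 2, where each was a single site below the list's median score, at percentile 48.0 or less.

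Erbb3 encodes the ErbB receptor with an impaired kinase, which signals through its partners, with Erbb2 as the best known. Its span covers chromosome 10 from 128567523 to 128589635. The promoter table used for strand holds no entry for Erbb3, so the minus strand was taken from the sites, all 40 of which lay on it. The recurrent region nearer the 3′ end covered 128578182 to 128578193, with scores of up to 49.6, 52.5 and 29.3 in lists 1, 2 and 3 and 3 nucleotides present in every list. The other covered 128578986 to 128578992, with highest scores of 56.5, 47.2 and 1.15. It was strong in lists 1 and 2, at percentiles 87.6 and 87.8, but near the bottom of list 3, at percentile 4.94, and it was not kept among the higher-scoring 50% of sites. Regions at 128575653 to 128575656 (lists 1 and 2) and 128572484 to 128572492 (lists 2 and 3) were found in 2 lists. The microRNA gene Mir6917 lies inside the Erbb3 span, and none of the 9 regions touched it.

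Recurrent regions occupied similar places in Erbb2 and Erbb3, which arose from a common ancestral receptor gene. Those of Erbb2 began 11855 and 12763 nt from its 5′ end, at 47.0% and 50.6% of the span's length. In Erbb3 they began 10643 and 11442 nt from the 5′ end, at 48.1% and 51.8% of the length. The regions of a pair were 908 nt apart in Erbb2 and 793 nt apart in Erbb3. This likeness was noticed after the positions were seen and was not tested. Exon positions and sequence were not used here, so whether the paired regions lie in matching exons or introns was not examined.

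**Figure D2:**
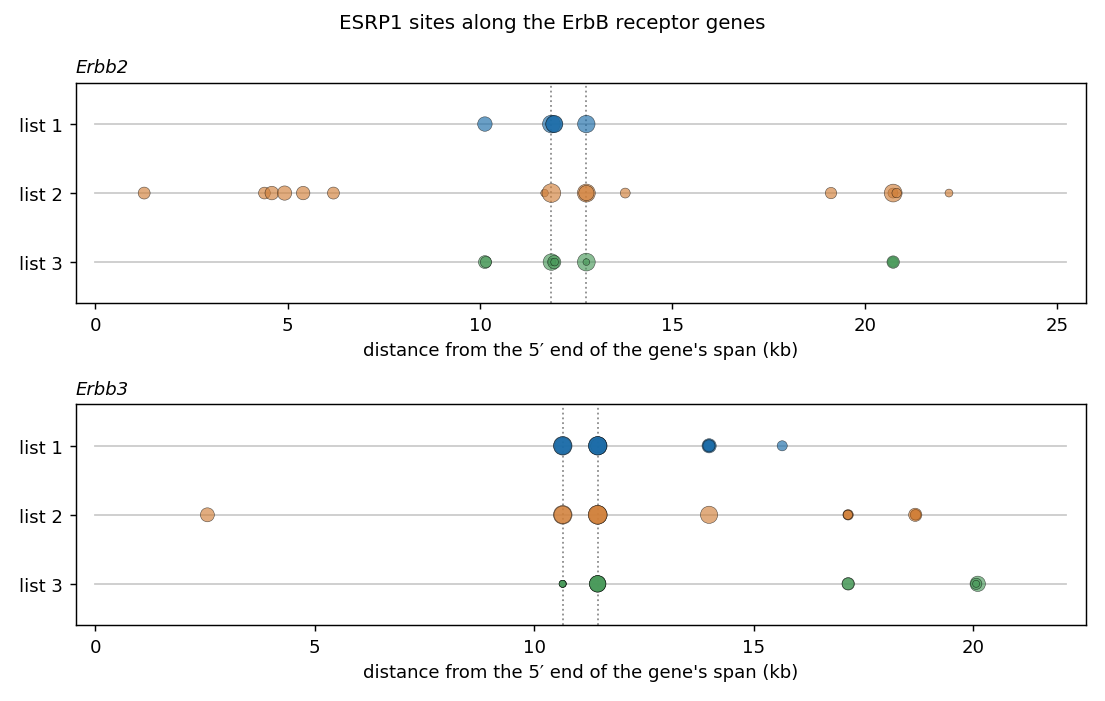
Each point is a site, placed by its distance in kb from the 5′ end of the gene's span and drawn larger for a higher score percentile within its list; rows are lists and dotted lines mark the starts of regions found in all 3 lists. In both genes the dotted lines stand near the middle of the span, at 11.9 and 12.8 kb in Erbb2 and 10.6 and 11.4 kb in Erbb3, and list 2 alone has sites in the first 10 kb.

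Egfr, which encodes the receptor for EGF, TGF-alpha and amphiregulin, had sites in every list but no recurrent region. Its span on chromosome 11, 16752203 to 16913907 on the plus strand, held 3, 1 and 3 sites in lists 1, 2 and 3. The only region in more than 1 list was at 16884895 to 16884896, with highest scores of 23.9 in list 1 and 29.8 in list 2 and no site in list 3, so that Egfr has a shared region when list 3 is left out. Per 100 kb of span there were 2.47 regions in Egfr, against 71.3 in Erbb2 and 40.7 in Erbb3, whose spans are far shorter. The longer members were also low, with 2.31 in Sos1, 3.11 in Insr, 5.69 in Igf1r, 9.29 in Grb2 and 9.80 in Braf. The density over other long genes was not computed. Met, the receptor for hepatocyte growth factor, had no site on either strand in any list over its span of 110632 nt on chromosome 6, from 17463349 to 17573980. For a single list a count of 0 allows up to 3 sites, counting error only. That limit treats sites as independent, though neighbouring nucleotides can carry sites together, so it may be too low.

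Igf1r and Insr encode the closely related receptors for IGF1 and insulin, and many of their sites lay near the 3′ end. Igf1r spans 281412 nt of chromosome 7, from 67952257 to 68233668 on the plus strand, and held 6, 9 and 4 sites in lists 1, 2 and 3. The last 5000 nt, 1.78% of the span, held 7 of its 16 regions. At 68230346 a site was present in lists 1 and 3, with scores of 3.45 and 3.97, and at 68230369 to 68230371 there were sites of lists 2 and 3, with scores of 16.8 and 0.0542. These neighbours became 1 region of all 3 lists when sites up to 50 nt apart were joined. Another region in 2 lists lay far from them, at 67979145 to 67979150, with scores of 20.9 in list 2 and 9.84 in list 3. Igf1r had 2 shared regions without list 1 and 1 without list 2.

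Insr spans chromosome 8 from 3150922 to 3279649, and the minus strand was again taken from its sites. It had 7 sites in list 1, 0 in list 2 and 4 in list 3, all 11 of them between 3387 and 4044 nt from the 3′ end. The region at 3154858 to 3154859 had highest scores of 35.6 in list 1 and 35.1 in list 3, at percentiles 79.1 and 72.2 of those lists. The region at 3154432 to 3154446 was weaker, with 8.57 and 2.41. Without list 2, which has no site in Insr, the gene has 2 shared regions. Windows of 5000 nt at the 3′ end held 20 of the 71 regions of the 9 genes (28.2%, exact interval 18.1 to 40.1), against 29.3% (28.7 to 29.9) of regions in all protein-coding genes with spans of at least 22113 nt. Over the 9 genes together the 3′ share was therefore close to that of other long genes. Of the 10 recurrent regions, 1 lay in the last 5000 nt, 0 in the last 1000 nt and 1 within 1000 nt of the 5′ end, against 35.5%, 15.6% and 6.71% of recurrent regions in those genes, and all these values lie inside the wide exact intervals of 10 regions (0.253 to 44.5% for 1 region and up to 30.8% for 0).

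**Figure D3:**
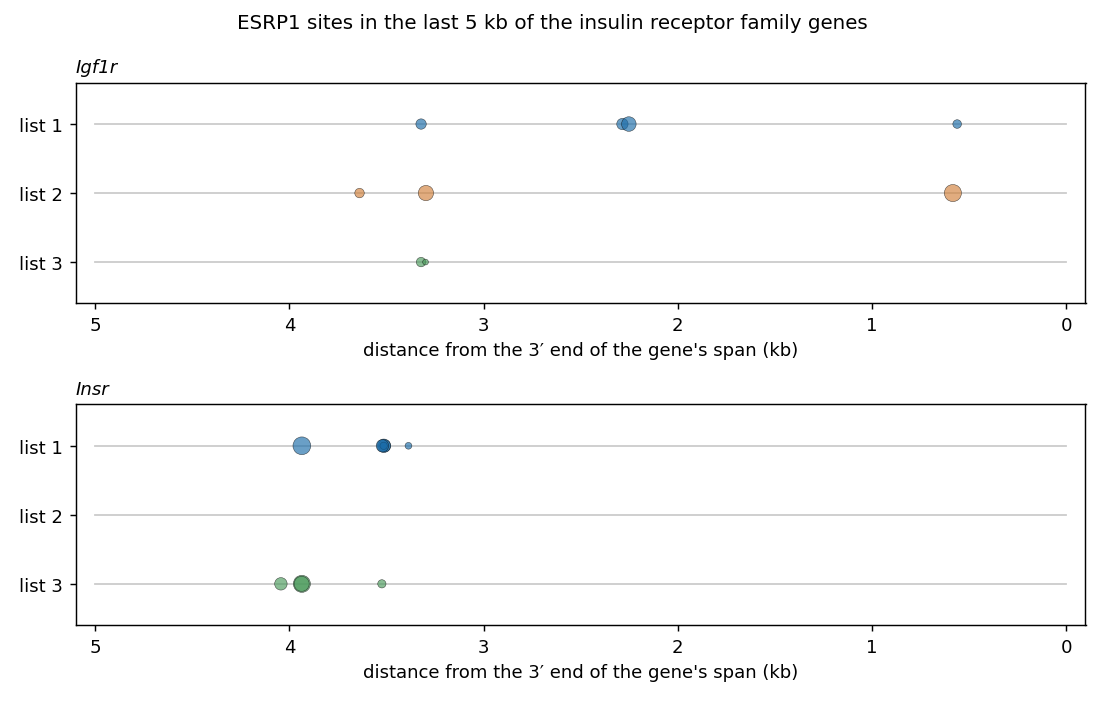
Each point is a site in the last 5 kb of the gene's span, placed by its distance in kb from the 3′ end and drawn larger for a higher score percentile within its list. In Igf1r all lists have sites at about 3.3 kb, though no region joined at 10 nt holds sites of all 3, and Insr has sites of lists 1 and 3 between 3387 and 4044 nt and none of list 2.

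Grb2 encodes the adaptor that links activated receptors to SOS. It spans chromosome 11 from 115644045 to 115708597 on the minus strand and had 3 recurrent regions. That number was reached by 574 protein-coding genes, 2.62% of all 21887. Only 7607 of the 21887 had a site on their strand, and 3713 had a recurrent region. A pair of regions lay 115 nt apart at 79.2% and 79.4% of the span's length, 13.3 and 13.4 kb from its 3′ end. The first covered 115657345 to 115657350, with scores of up to 11.5, 10.04 and 51.7 in lists 1, 2 and 3. Its percentile was highest in list 3, at 83.2. The neighbouring region at 115657465 to 115657468 had scores of 40.1, 12.8 and 32.2, with the highest percentile in list 1, at 81.6. The third lay toward the 5′ end, at 115705869 to 115705878, with scores of 20.1, 12.7 and 16.6 on the same top nucleotide in every list. In list 2 all 3 regions stood below the list's median, at percentiles 39.2 to 45.8, which is why none was kept among the higher-scoring 50% of sites. In lists 1 and 3 they stood at percentiles 49.7 to 81.6 and 48.1 to 83.2.

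Another Grb2 region, 115708494 to 115708496, lay 101 nt inside the 5′ end and had sites of lists 1 and 2, so Grb2 had 4 shared regions without list 3. List 3 had its own site 76 nt away, at 115708418. The RefSeq promoter table places the starts of Grb2 transcripts at 115699928 and 115699534, more than 8 kb inside the annotated span. Of the 6 regions, 4 lay upstream of both starts, within the outer part of the span.

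Braf encodes the Raf kinase with the highest basal activity, which phosphorylates MEK. It spans chromosome 6 from 39603231 to 39725658 on the minus strand and also had 3 recurrent regions. One lay at 39725273 to 39725274, 189 nt downstream of the RefSeq start, and both of its nucleotides were present in every list. Its highest scores were 26.3, 21.9 and 69.4 in lists 1, 2 and 3, at percentiles 71.9, 67.8 and 89.4. The other regions lay 511 nt apart, 4775 and 5294 nt from the 3′ end. That at 39608006 to 39608014 had highest scores of 33.4, 24.5 and 33.4 on the same nucleotide. Its percentiles of 77.7, 72.1 and 70.7 were the most even of the 3 regions. That at 39608525 to 39608540 had scores of 9.51, 34.8 and 23.5 on different nucleotides, with none present in all lists. Altogether the last 10000 nt held 7 of the 12 Braf regions and 27 of its 38 sites, whereas the last 5000 nt held 1 region and 8 sites. No share over other genes was computed for the window of 10000 nt, which was chosen after the positions were seen. The lncRNA gene Gm34389 on the plus strand and the pseudogene Fth-ps2 lie inside the span, and no Braf region fell under them.

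Sos1 encodes the exchange factor that GRB2 recruits. Its 2 sites, both in list 1, lay on chromosome 17 at 80394375 and 80422903, with scores of 1.12 and 10.5, below the list's median of 11.6. Both fell where the Sos1 span overlaps that of Arhgef33, which is on the other strand. No site of lists 2 or 3 lay in the span of 86702 nt.

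**Figure D4:**
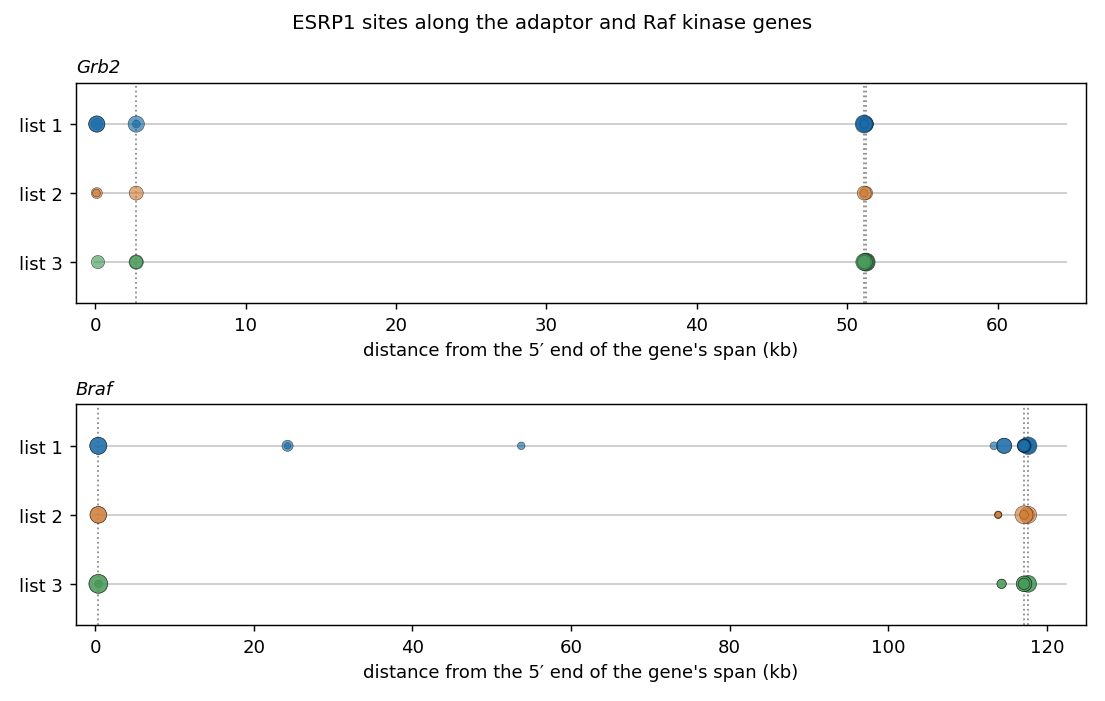
Each point is a site, placed by its distance in kb from the 5′ end of the gene's span and drawn larger for a higher score percentile within its list; rows are lists and dotted lines mark the starts of regions found in all 3 lists. Grb2 has dotted lines at 2.72, 51.1 and 51.2 kb and Braf at 0.384, 117 and 118 kb, with no Grb2 region between the first line and the pair; in Braf 13 of 38 sites, in 9 regions, lie between the first line and the pair.

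Recurrent regions were short, which joining only sites at most 10 nt apart favours. Their length was 1 to 16 nt with a median of 6.5 nt, 9 of the 10 held a nucleotide present in every list, and in 7 the highest score fell on the same nucleotide in every list. In 3 of these 7, neighbouring nucleotides tied for the highest score of a list and the shared nucleotide was among them. The Erbb2 region at 98424339 was a single nucleotide long, so it belongs to the 9 and to the 7 by definition. Of 131 nucleotides with a site in the 9 genes, 14 were shared by all lists. Lengths and shared nucleotides were not compared with those of recurrent regions in other genes. The recurrent regions had median score percentiles of 76.8, 76.4 and 68.3 in lists 1, 2 and 3, against 80.4, 72.9 and 75.5 for all recurrent regions of protein-coding genes. Regions of 1 list had medians of 20.3, 30.0 and 26.2 in the 9 genes, against 30.6, 29.4 and 29.5 in protein-coding genes. Over all sites of the 9 genes, 26 of 63, 19 of 57 and 20 of 57 stood above the median score of lists 1, 2 and 3, and their median percentiles were 47.1, 37.6 and 36.8. In every list fewer of their sites thus stood above the median score than below it.

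The pathway around the 9 genes was described with 77 further genes grouped by role. Of these, 58 had a site and 33 had a recurrent region (42.9%), against 17.0% of all protein-coding genes. Protein-coding genes with spans of at least 22113 nt stood at 25.3%, though some of the 77 genes are shorter than that. Counted over genes with a site the share was 56.9%, against 48.8% of protein-coding genes with a site. The median gene of the list had 0 recurrent regions, as did the median protein-coding gene. Among ligands 2 of 10 had one: Btc, encoding betacellulin, had 2 regions with 8, 4 and 14 sites, and Nrg1, the ErbB3 ligand neuregulin, had 1 with 5, 3 and 4 sites. Egf, Tgfa, Areg and Hgf had no site. Among other receptor kinases 4 of 11 had one, led by the collagen receptor gene Ddr1 and the ephrin receptor gene Epha2 with 2 each (10, 9 and 11 sites, and 11, 10 and 5). Adaptors and docking proteins had 5 of 15, with 3 regions in Gab1, a docking protein for PI3K and the phosphatase SHP2, and 2 in Grb7, an adaptor of ErbB receptors.

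Recurrent regions were found in relatives of several of the 9 genes. Sos2, the paralog of Sos1, had 3 recurrent regions and 14, 4 and 11 sites, where Sos1 had 2, 0 and 0 sites. Of the Ras genes, Nras had 5 regions with 22, 12 and 19 sites and Hras had 1, and 4 of 8 genes of this group had one. Araf, another Raf kinase gene, had 2 regions, against 3 in Braf. Raf, MEK and ERK kinases and their scaffolds were grouped with the downstream kinase genes Rps6ka1 and Rps6ka3, and 6 of these 10 had one. Shoc2, a scaffold that helps activate Raf, led with 4 regions and 29, 19 and 16 sites. Rps6ka3 had 3 regions, and the MEK genes Map2k1 and Map2k2 had no recurrent region. Among Ras GTPase activating proteins and inhibitors 4 of 13 had one, with 5 regions in Rasal2 and 3 in Errfi1, an inhibitor of the EGF receptor. In the PI3K and Akt branch 8 of 10 had one, with 2 regions each in Pik3cb and Akt2. Hras and Araf were named after their values were seen.

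**Figure D5:**
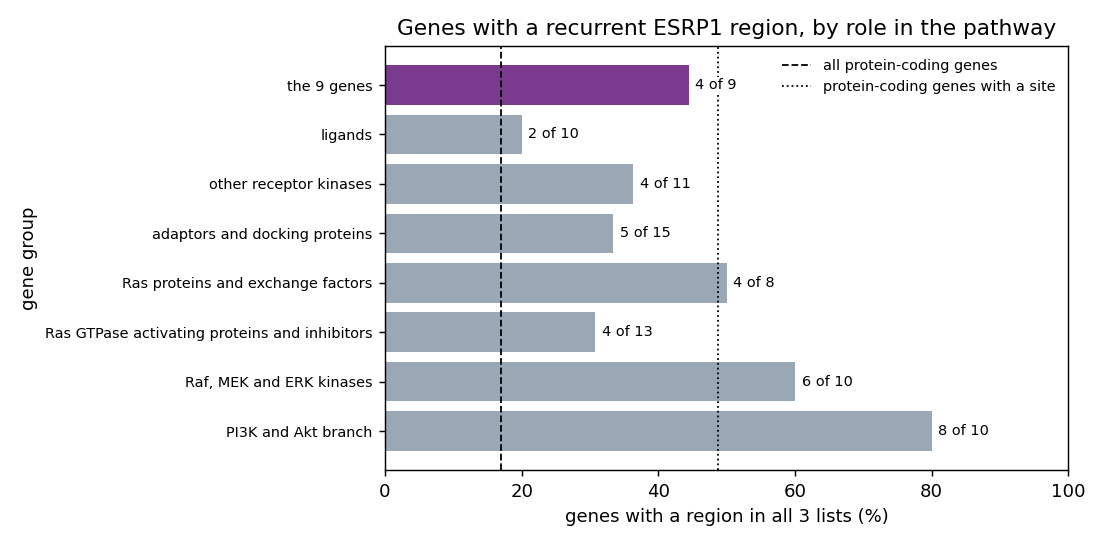
Bars give the percentage of genes that hold a recurrent region, for the 9 genes (4 of 9) and for each role in the wider pathway, with counts beside the bars. Bars count all genes of a group, as does the dashed line (17.0% of all protein-coding genes), whereas the dotted line (48.8%) counts only genes with a site; ligands, at 2 of 10, have the lowest share and the PI3K and Akt branch, at 8 of 10, the highest.

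Site counts like those of the leading genes occurred in unrelated genes. By distance in log2(sites + 1) over the 3 lists, the genes nearest to Braf were Crybg3 with 16, 11 and 12 sites, Hook1 with 17, 10 and 13 and Rcc2 with 15, 10 and 13. Near Grb2 were Tmed9, with the same 12, 6 and 10 sites as Grb2, and Arl6ip4 with 11, 6 and 10, chosen alphabetically among equals. This likeness rests on 3 counts per gene.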

How the data were processed

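Epidermis of Esrp1FLAG/FLAG pups was used for 6 FLAG and 6 input eCLIP libraries; per the labels' protocols, the membrane between 75 and 140 kDa was excised. The authors deposited 3 lists of 1-nt sites with a score each; the track lines name 2 replicates a list and calling with input, per the file headers. A title in the labels names PureCLIP, without saying for which step. HISAT2 2.1.0, HOMER, cutadapt 1.16, mm10 and GRCm38 appear without roles, per the submitters' processing notes. Settings for trimming, deduplication and calling: not given in the sources used here. Calling on pooled replicates hides their spread.

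Sites were counted with Python 3.11.15, numpy 2.4.6 and pandas 2.3.3 (intervals: scipy 1.17.1). Gene spans came from RefSeq on GRCm38.p6, with 1-based coordinates. Strand came from the RefSeq promoter table for 17492 protein-coding genes and from the strand with most sites for 1648; 2747 had no site and no strand. Regions of different lists were shared within 10 nt. The joining was tested on simulated data. No test was run, since the lists hold no groups to compare; intervals are exact (Clopper-Pearson, 95%) and cover counting error only. Joining distance, score filter, strand, overlapping spans and each list in turn were varied.

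Members and gene lists were chosen with earlier results of these data known. Named genes are the 9 members, the 2 genes of each role with most recurrent regions and the 3 nearest in site counts to Grb2 and Braf, with further genes where the text says so; some genes under this rule are not reported here. The windows of 5000 and 10000 nt were chosen after the positions were seen. Sequence and exons at the sites were not used here.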

Additional observations from a re-analysis of the deposited data

Results flagged for a closer look

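Braf had 4 sites on the strand opposite the gene, all in list 1, above the limit of 3 sites used for a count of 0. All 4 lie within 10 nt of each other and form a single region, so they are not independent counts, and list 1 is the largest of the lists. They lay on chromosome 6 between 39701249 and 39701256, with scores of 2.50, 5.64, 12.9 and 0.662, and the nearest site on the Braf strand was 153 nt away, in the same list. Lists 2 and 3 had no site there on either strand, and no other member had a site on its opposite strand. The source of these sites was not tested.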

How the results depend on the processing

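The count of 10 recurrent regions was 11 with joining at 0 nt and 11 at 50 nt, 10 with sites on either strand and 10 without sites under another gene span. It was 5 for the higher-scoring 50% of sites, where the higher threshold leaves fewer sites by construction, and 13 to 15 when 1 list was left out. Genes with such a region numbered 4, with a range of 3 (higher-scoring 50%) to 6 (without list 2), and the percentage over all protein-coding genes ran from 12.1 to 21.0. Of 72 gene-level values, 64 stayed within 1.5 times the reported count and 8 did not. These 8 concern Egfr, Erbb2, Erbb3, Grb2, Igf1r and Insr and are given beside each gene. The 64 include reported counts of 0 that stayed 0, which was so in most settings for Met, Sos1, Egfr, Insr and Igf1r. A ratio has no meaning for such counts, so the 64 overstates how stable the counts were. Met and Sos1 had no recurrent region under any of these settings. No paired analysis was possible because each list pools 2 replicates and was called with their inputs, so no column holds a single library. The lists hold no read counts, so how depth limits the sites of a gene could not be measured.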
